A study of Mus musculus with 6 samples.

Results

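Extracellular nucleotides are read and cleared by a small set of surface proteins, and 10 of their genes were followed here in cells sorted from the gut wall for a reporter of Tslp. They are the genes of 7 purinergic receptors (P2rx1, P2rx4, P2rx7, P2ry1, P2ry2, P2ry6 and P2ry14) and of 3 ectonucleotidases (Entpd1, Entpd2 and Nt5e), taken by symbol from the 33697 genes of the files, and all 10 were found. The cells were sorted as live tdTomato+ cells out of gut lamina propria from Flare-TSLP mice, which are C57BL/6 mice carrying the red fluorescent protein tdTomato behind the Tslp coding sequence, so that the label follows transcription of the locus, together with loxP sites in the same allele, and which derive from 1 targeted embryonic stem cell clone. No treatment or second genotype was given. The 6 libraries came from the proximal jejunum (proximal small intestine, replicates 1 and 2), the distal ileum (distal small intestine, replicates 1 and 2), the cecum and the large intestine, the last 2 with 1 library each. Cells of several mice, marked by antibody hashtags, were pooled in each library, and no table pairs hashtags with mice. A library was therefore counted as 1 sample, and a p-value rests on the spread between libraries as the fit estimated it. By the study's methods its pooled experiments used young adult mice of both sexes, and the age and sex behind each library were not given in the labels.

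ATP leaks or is released from stressed, stretched and dying cells and from nerve endings, and acts at short range. P2X receptors are cation channels opened by ATP, whereas P2Y receptors are G-protein-coupled and read ATP, ADP, UTP, UDP or UDP-sugars. The ectonucleotidase CD39, encoded by Entpd1, cuts ATP and ADP to AMP, NTPDase2, encoded by Entpd2, cuts mainly ATP to ADP, and CD73, encoded by Nt5e, turns AMP into adenosine, which has its own receptors. In the gut wall ATP and related nucleotides are known as transmitters of enteric nerves to smooth muscle and as alarm signals to immune cells.

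After filtering 93558 cells were kept, with 11174 to 19073 in a library and 109675337 to 206827504 UMIs (molecular tags that mark each captured transcript) on genes in a library. Cells were assigned to classes by fixed marker genes, none of them a member, and 825 cells (0.882%) remained without a class. The name of each class was tested on separate check markers. With all libraries pooled, 2 or more of the 3 or 4 check markers of every class were highest in it. The classes held 72267 fibroblast-like cells, 15474 lymphatic endothelial cell (LEC)-like cells, 1404 blood endothelial-like, 983 pericyte-like, 753 smooth muscle-like, 143 glia-like, 252 myeloid-like, 357 T cell or ILC-like, 1024 B or plasma cell-like and 76 epithelial-like cells. Among fibroblast-like cells, 35549 were trophocyte-like (the Ackr4 and Grem1 fibroblasts below the crypts), 9706 subepithelial myofibroblast (SEMF)-like, 1379 telocyte-like, 3008 universal fibroblast-like (Pi16 and Dpp4) and 22625 passed no subclass gate. In SEMF-like cells of the cecum and the large intestine the check markers Frmd5, Lrat and Itga8 were far below their small intestinal levels, as given below. For each library and class, a level in CPM is a gene's count scaled to 1000000 UMIs in total, for classes with at least 20 cells in that library. The sort also held classes in which the reporter was hardly seen or not seen. The study removed clusters with few tdTomato+ cells as contaminants, and that step was not applied here. At least 1 tdTomato UMI was found in 3.27% of fibroblast-like, 1.23% of LEC-like and 1.02% of pericyte-like cells, in 2 of 753 smooth muscle-like, 2 of 252 myeloid-like and 1 of 1024 B or plasma cell-like cells, and in none of the 1404 blood endothelial-like, 357 T cell or ILC-like, 143 glia-like and 76 epithelial-like cells, which allows a share of cells with a UMI of up to 0.214%, 0.840%, 2.10% and 3.95%. With a UMI in so few fibroblast-like cells as well, these limits do not bound the share of cells that carry the reporter. Levels in these last 7 classes are those of cells found in the sort and are not given as levels of cells that report Tslp. Free RNA held 4.45 CPM of tdTomato, against 4.13 CPM in fibroblast-like cells, so these shares do not tell which single cells carried the reporter. Only 38 to 118 cell barcodes were shared between any 2 libraries. In barcodes with at most 100 UMIs, which hold free RNA rather than cells, members of the fibroblast-like cells were plentiful (P2ry14 70.5 to 164 CPM, Entpd2 76.1 to 205 CPM), so low levels in rare classes were read against this background.

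The members lie on 7 chromosomes (build GRCm39, GENCODE annotation). P2rx1 spans positions 72889875 to 72906026 of chromosome 11 on the plus strand. P2rx7 (122781942 to 122830400) and P2rx4 (122845541 to 122867803) are neighbors on the plus strand of chromosome 5, 15.14 kb apart, and P2ry6 and P2ry2 are neighbors on the minus strand of chromosome 7, 16.475 kb apart. P2ry14 and P2ry1 are both on chromosome 3, 1849.024 kb apart, and P2ry14 lies within Med12l on the opposite strand. Entpd1 is on chromosome 19, Nt5e on chromosome 9, and Entpd2 (chromosome 2, 25285691 to 25291424) overlaps Npdc1 on the same strand over 2062 bp, so reads in the overlap could be counted for either. The 250 bases before the annotated start of the 3 ion channel genes are shown because P2rx4 and P2rx7 are adjacent and were highest in different classes, and because P2rx1 had most of its UMIs in a single subclass. Capitals mark CG dinucleotides, and the windows are chr11:72889625-72889874, chr5:122845291-122845540 and chr5:122781692-122781941, all on the plus strand.
P2rx1: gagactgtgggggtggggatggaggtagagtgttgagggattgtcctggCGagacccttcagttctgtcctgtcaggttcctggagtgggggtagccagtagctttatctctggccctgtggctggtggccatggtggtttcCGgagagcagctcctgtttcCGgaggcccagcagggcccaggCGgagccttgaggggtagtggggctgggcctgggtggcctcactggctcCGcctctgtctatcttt
P2rx4: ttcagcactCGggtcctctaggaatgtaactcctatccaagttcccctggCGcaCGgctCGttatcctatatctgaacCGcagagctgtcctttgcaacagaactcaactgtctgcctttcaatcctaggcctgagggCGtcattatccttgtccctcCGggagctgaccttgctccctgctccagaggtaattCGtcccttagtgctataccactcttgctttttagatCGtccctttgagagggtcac
P2rx7: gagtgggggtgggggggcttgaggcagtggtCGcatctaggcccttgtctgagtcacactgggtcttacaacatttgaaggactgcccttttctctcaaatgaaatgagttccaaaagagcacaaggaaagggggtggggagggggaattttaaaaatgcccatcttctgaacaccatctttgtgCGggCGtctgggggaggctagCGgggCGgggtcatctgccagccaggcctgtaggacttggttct
The windows of P2rx1 and P2rx7 held 5 CG dinucleotides each and that of P2rx4 held 9, against a median of 8 over the windows of 21431 coding genes. On either strand, none of the 3 held the bases TATAAA (in 11.9% of all windows), a forkhead motif (TGTTTAC, in 2.73%) or a CArG box (in 1.40%). Among the 10 members, only P2ry2 and Nt5e held 1 of these motifs, TATAAA. It was counted anywhere in the window and on either strand, so it is not read as a TATA box.

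Each member had its own distribution over the classes. P2rx1 was highest in SEMF-like cells, P2rx7 in glia-like cells, P2rx4 and P2ry6 in myeloid-like cells, P2ry2 and Entpd1 in blood endothelial-like cells, P2ry14 in trophocyte-like cells, Entpd2 in universal fibroblast-like cells and Nt5e in T cell or ILC-like cells. P2ry1 had its highest mean in the fibroblast-like cells without a subclass, although SEMF-like cells were above these in 4 of 6 libraries. P2ry14 was likewise nearly level in trophocyte-like and smooth muscle-like cells (means of 188 and 181 CPM), the first being above the second in 3 of 6 libraries. For P2rx1, SEMF-like cells were above smooth muscle-like cells in 5 of 6 libraries, the exception being the large intestine. Of the 10, P2rx7, P2rx4, P2ry6, P2ry2, Entpd1 and Nt5e were thus highest in classes with a tdTomato UMI in 2 cells or none. LEC-like cells, the second largest class, were highest in none of the 10. Over the 72 library and class sums, the pair of members with the highest Pearson correlation of log2(CPM + 1) was P2ry2 and P2ry6 (r = 0.72), followed by P2ry1 and P2ry14 (r = 0.70), whereas the neighbors P2rx4 and P2rx7 gave r = 0.29. These sums share libraries and the correlations are descriptions.

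**Figure D1:**
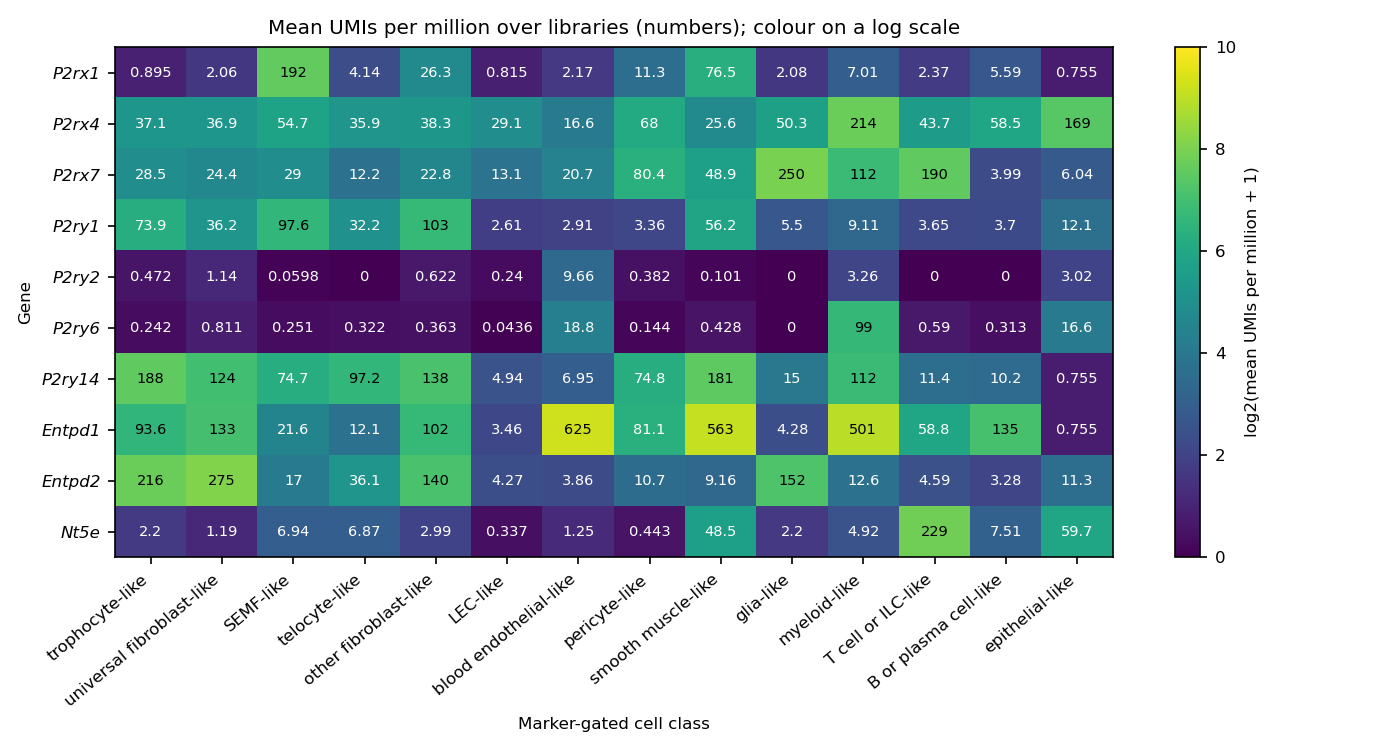
Mean CPM over libraries for the 10 members (rows) in 14 marker-gated classes (columns), printed in each cell, with color on a log2(mean + 1) scale; the epithelial-like column rests on the large intestine alone. P2rx1 stands out in SEMF-like cells at 192, P2rx7 in glia-like cells at 250 and Entpd1 in blood endothelial-like cells at 625, while the LEC-like column holds no value above 29.1.

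P2rx1 encodes an ATP-gated channel known from smooth muscle and platelets. In SEMF-like cells it stood at 285 and 265 CPM in the proximal pair of libraries, 303 and 263 in the distal pair, 33.1 in the cecal and 4.76 in the large intestinal library. The 4 small intestinal libraries were thus close to each other and far above both other libraries. At least 1 P2rx1 UMI was found in 79.9% to 83.5% of the SEMF-like cells of a small intestinal library, in 18.2% of those in the cecum and in 3.56% of those from the large intestine. The corresponding share over all LEC-like cells was 0.860%, with median depths of 8627 UMIs in SEMF-like and 6044 in LEC-like cells. SEMF-like cells gave 71.0% of the 17792 P2rx1 UMIs of all gated cells.

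In trophocyte-like cells P2rx1 ran from 0 to 1.84 CPM, below the SEMF-like level in each library. The difference between SEMF-like and trophocyte-like cells was 7.55 ± 0.33 (SE) on the log2 scale (adjusted p = 7.1e-06, edgeR quasi-likelihood test with library as a block, 6 libraries). It was 7.67 ± 0.23 in the small intestine alone and ran from 5.72 to 15.9 over the alternatives. The trophocyte-like values lay below the free RNA, which held 3.22 to 37.1 CPM of P2rx1 in a library, so the size of the difference is not exact. Universal fibroblast-like cells held 2.06 ± 2.73 CPM (SD, n = 6). Telocyte-like cells, the Sox6 and Foxl1 fibroblasts close to the epithelium, had 4.14 ± 4.80 CPM and were lower than SEMF-like cells (log2 difference -5.47 ± 0.30, adjusted p = 1.3e-05), although these cells numbered only 21 to 76 in a small intestinal library, against 1096 in the large intestine.

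Fibroblast-like cells without a subclass gave a further 21.4% of the P2rx1 UMIs, at 36.1 to 41.2 CPM in the small intestine and 1.13 and 0.552 CPM in the cecum and the large intestine. Smooth muscle-like cells gave 3.43% of the UMIs but had the second highest mean, at 72.9 and 173 CPM in the proximal and 71.7 and 71.4 in the distal pair of libraries, 32.2 in the cecal and 38.1 in the large intestinal library. They exceeded fibroblast-like cells in all 6 libraries (1.74 ± 0.39, adjusted p = 0.0040). Without the library as a block this difference missed the threshold (adjusted p = 0.080). Pericyte-like cells varied from 0 to 29.4 CPM and were lower than fibroblast-like cells (-1.23 ± 0.30, adjusted p = 0.0062). This direction turned with classes taken from clusters (1.51, adjusted p = 0.015), and the adjusted p was 0.058 without the second distal replicate and 0.25 without the library as a block.

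The SEMF-like cells of the cecum and the large intestine differed in their markers from those of the small intestine. Their gate markers Wnt4, Nrg1, Agt and Procr were all above the small intestinal range (Nrg1 1042 and 2393 CPM against 392 to 531 CPM), Cxcl14 was not, and the check markers Frmd5, Lrat and Itga8 were near 0, while the fourth, Ntf3, was 173 and 167 CPM against 266 to 559 CPM in the small intestine. Lrat was 396 to 865 CPM in the small intestine and 1.29 and 0.55 CPM in the cecum and the large intestine, and Itga8 507 to 773 CPM against 22.7 and 8.1 CPM. Summed smooth muscle gate markers in SEMF-like cells ran from 119 to 169 CPM in the small intestine and were 194 and 172 CPM in the cecum and the large intestine, and summed pericyte gate markers 50.1 to 163 CPM against 56.6 and 42.9 CPM. The part of these markers in the P2rx1 difference was not tested. Itga8, an integrin subunit, was also the gene with the pattern most like P2rx1 over 72 sums and 19460 genes (r = 0.86), before Chst9 (0.81) and Tmem178 (0.78).

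Split after seeing this, SEMF-like cells with an Itga8 UMI held 311, 307, 316 and 282 CPM of P2rx1 in the small intestinal libraries, 47.4 in the cecal and 10.8 in the large intestinal library. Cells without one held 142, 148, 217, 145, 30.5 and 4.37 CPM in the same order, with slightly fewer UMIs per cell. Itga8 was chosen for its likeness to P2rx1, so the higher values of cells with it are a description.

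**Figure D2:**
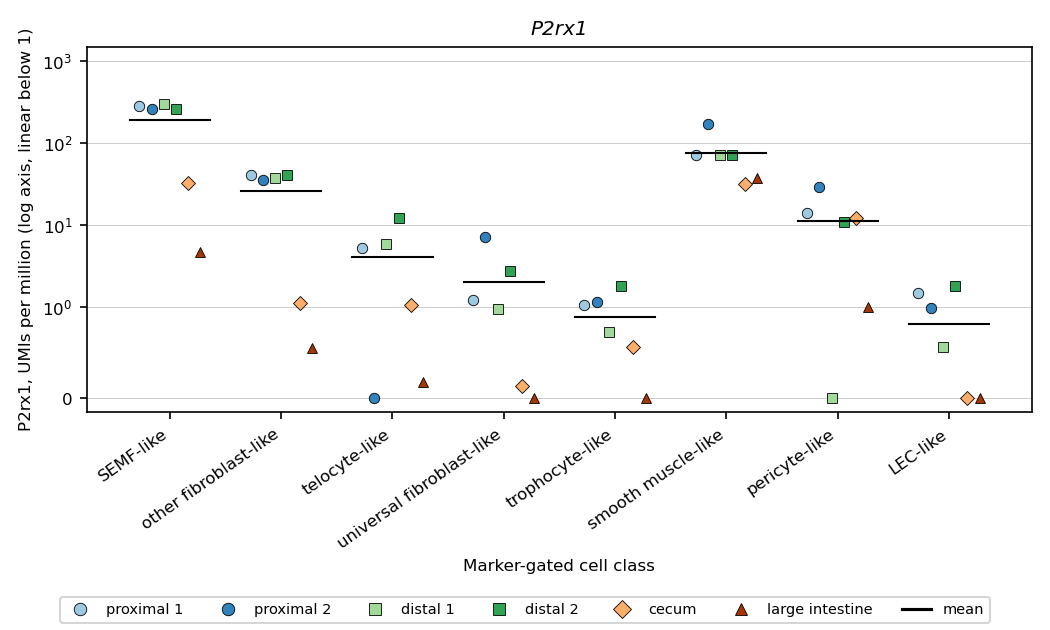
P2rx1 in CPM (log axis, linear below 1) in 8 marker-gated classes, with 1 point for each library and a bar at the mean of the libraries. The SEMF-like points of the small intestine lie between 263 and 303, whereas those of the cecum and the large intestine are 33.1 and 4.76.

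P2rx7 encodes a channel that needs high ATP and is known for opening large pores and for inflammasome activation in macrophages. It was highest in glia-like cells, at 302, 256 and 191 CPM in the 3 libraries with at least 20 of these cells (both proximal replicates and the first distal replicate), and 72.9% of glia-like cells had a UMI. Fibroblast-like cells of the same libraries held 28.5 to 33.1 CPM, so the groups lay far apart (2.92 ± 0.19, adjusted p = 2.4e-51 in edgeR's fit of 3 libraries). These sums rest on 118 cells and 29 to 97 UMIs in a library, and the fit had 2 residual degrees of freedom. A p this small therefore does not measure the spread of these 3 libraries alone. Over the alternatives the difference ran from 2.33 to 3.06, and the largest adjusted p of those runs was 0.0022. T cell or ILC-like cells followed with 187, 213, 135 and 226 CPM in the small intestine, and the ranges of both classes overlapped, although glia-like cells were higher in each of 3 libraries.

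Myeloid-like cells held 97.0 to 134 CPM of P2rx7 in 5 libraries and were higher than fibroblast-like cells (1.87 ± 0.18, adjusted p = 9.5e-07). Pericyte-like cells held 98.6 and 152 CPM in the proximal and 77.3 and 100 in the distal pair of libraries, 41.4 in the cecal and 13.5 in the large intestinal library. They were above the fibroblast-like cells in 5 of 6 libraries (1.33 ± 0.28, adjusted p = 0.0023), the exception being the large intestine. Smooth muscle-like cells were higher as well (0.79 ± 0.13, adjusted p = 4.4e-04). LEC-like cells had 10.5 to 16.2 CPM, below fibroblast-like cells in all 6 libraries (-0.98 ± 0.10, adjusted p = 3.8e-05), and B or plasma cell-like cells 0 to 10.0 CPM.

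P2rx4 encodes a channel of high ATP affinity that is kept partly in lysosomes and is known from macrophages and microglia. It was the most even member, with class means between 16.6 and 68.0 CPM apart from myeloid-like and epithelial-like cells. Myeloid-like cells held 157, 237, 224, 187 and 268 CPM (both proximal, both distal and large intestinal libraries), above every value of the pericyte-like cells, the next class among those seen in several libraries, and 2.26 ± 0.17 log2 units above fibroblast-like cells (adjusted p = 6.3e-08). The 52 epithelial-like cells of the large intestine had 169 CPM, within the myeloid-like range. LEC-like cells were lower than fibroblast-like cells by a small amount (29.1 ± 4.0 against 38.9 ± 4.05 CPM, SD, n = 6, adjusted p = 8.8e-04), and blood endothelial-like cells were lower than LEC-like cells in all 5 libraries with both (16.6 against 30.0 CPM, -0.80 ± 0.18, adjusted p = 0.0046). The calls for pericyte-like cells over fibroblast-like cells (0.61 ± 0.19, adjusted p = 0.022) and for SEMF-like cells over trophocyte-like cells (0.31 ± 0.09, adjusted p = 0.029) were each lost when any of the 4 small intestinal libraries was left out, with adjusted p from 0.056 to 0.12.

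P2ry14, whose receptor responds to UDP-glucose and related UDP-sugars, was the receptor with the most UMIs, 106605 in gated cells, of which trophocyte-like cells gave 65.4%. In trophocyte-like cells it stood at 221, 268, 204 and 209 CPM in the small intestinal libraries, 96.9 in the cecal and 130 in the large intestinal library. Smooth muscle-like cells held 136 to 220 CPM, above the trophocyte-like values of the cecum and the large intestine, with no difference past the threshold from fibroblast-like cells (0.19 ± 0.26, adjusted p = 0.61). SEMF-like cells were lower than trophocyte-like cells in 6 of 6 libraries (74.7 ± 29.8 against 188 ± 63.1 CPM, SD, adjusted p = 0.0019), a call lost with classes by cluster (-0.93, adjusted p = 0.072), and universal fibroblast-like cells were lower as well (-0.71 ± 0.11, adjusted p = 0.0022), though not without the library as a block (0.39). In LEC-like, blood endothelial-like and glia-like cells the level was 2.59 to 25.6 CPM, under the free RNA of every library. Myeloid-like cells held 83.4 to 137 CPM and were called lower than fibroblast-like cells (-0.72 ± 0.21, adjusted p = 0.012), a call lost without the first (0.064) or second (0.080) proximal replicate.

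**Figure D3:**
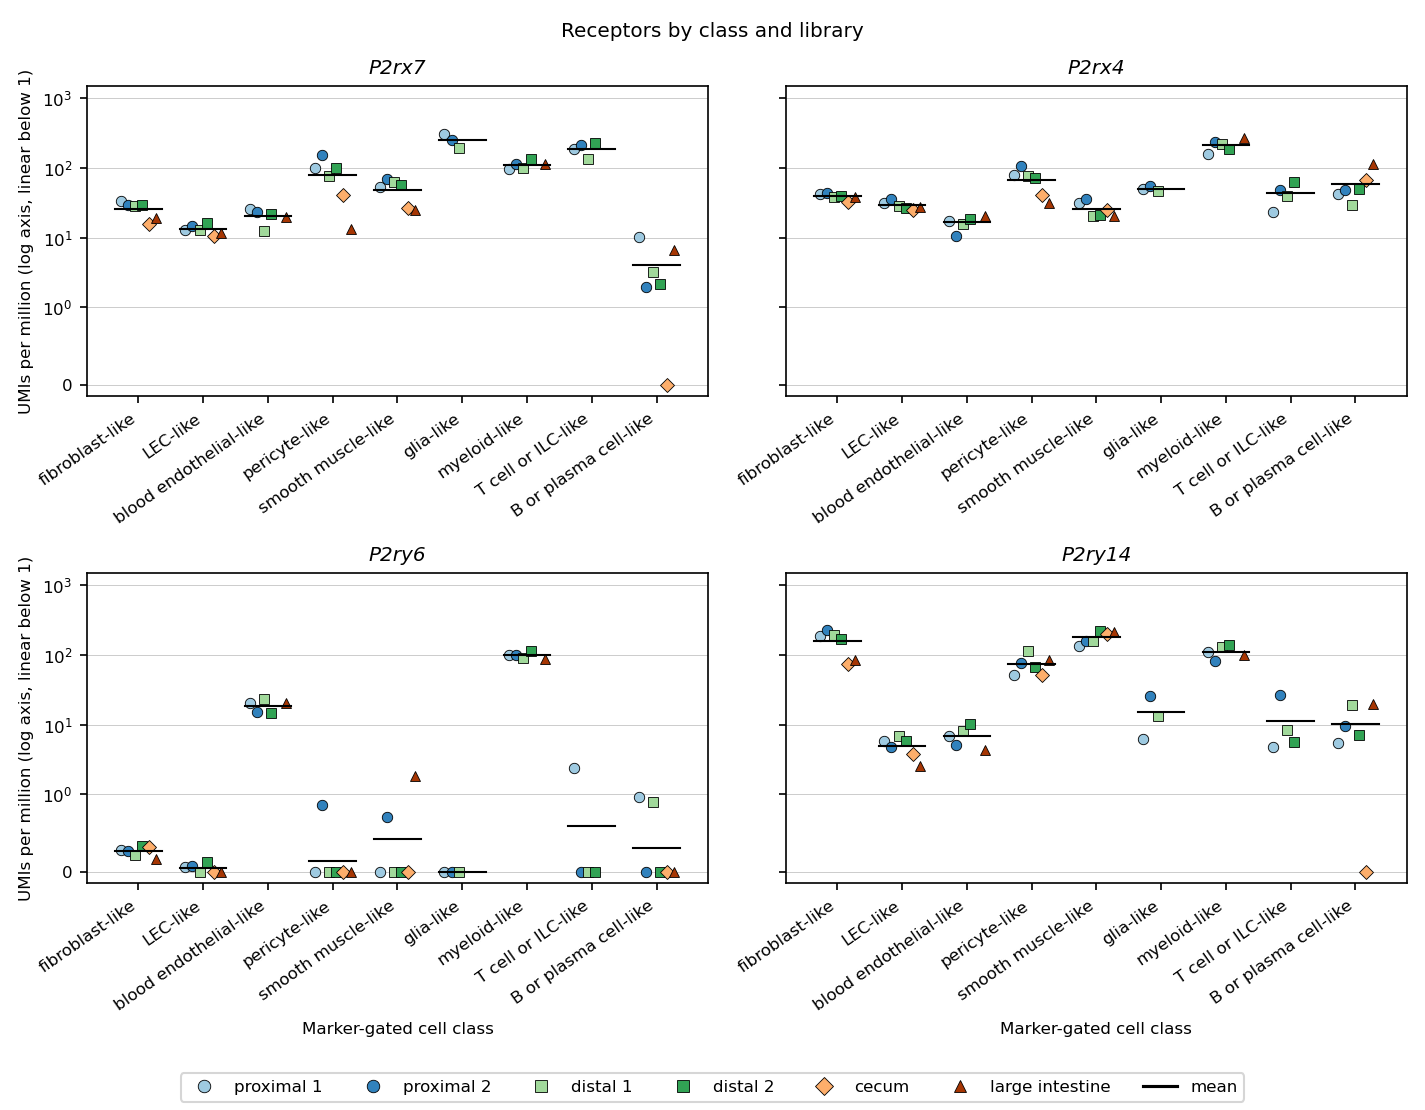
P2rx7, P2rx4, P2ry6 and P2ry14 in CPM (log axis, linear below 1) in 9 marker-gated classes, with 1 point for each library and a bar at the mean. Glia-like cells hold 191 to 302 of P2rx7, myeloid-like cells 157 to 268 of P2rx4 and 88.7 to 114 of P2ry6, and P2ry14 separates fibroblast-like (74.8 to 232) from LEC-like cells (2.59 to 6.92).

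P2ry1, a receptor for ADP known from platelets and from inhibitory transmission to gut muscle cells, had its 3 highest means in fibroblast-like cells, those without a subclass (103 CPM), SEMF-like (97.6 CPM) and trophocyte-like cells (73.9 CPM). Smooth muscle-like cells came next, with 13.3 to 109 CPM, above universal and telocyte-like fibroblasts in mean, and did not differ past the threshold from fibroblast-like cells (-0.65 ± 0.28, adjusted p = 0.098). SEMF-like cells held 131, 106, 121 and 146 CPM in the small intestine, 27.5 in the cecal and 53.9 in the large intestinal library. Trophocyte-like cells held 57.6, 62.6, 62.7 and 79.3 CPM in the small intestine and 80.8 and 100 CPM in the cecum and the large intestine. SEMF-like cells were therefore higher in 4 of 4 small intestinal libraries and lower in the other 2, and the difference over all 6 was 0.03 ± 0.39 (adjusted p = 0.96). In the small intestine alone it was 0.69 ± 0.07 (adjusted p = 2.1e-04), and the change of this difference between the 2 parts of the gut was -2.11 ± 0.22 (adjusted p = 0.0022). Universal fibroblast-like cells were lower than trophocyte-like cells (36.2 ± 18.1 against 73.9 ± 16.1 CPM, adjusted p = 0.0063), a call lost without the library as a block (0.069). LEC-like cells held 1.56 to 3.45 CPM, pericyte-like cells 0 to 12.9 and glia-like cells 3.66 to 6.60, all below the fibroblast-like range of 67.1 to 94.1 CPM (-5.04 ± 0.14, -5.54 ± 0.33 and -3.88 ± 0.46 on the log2 scale, adjusted p of 2.85e-08 or less in each). They also lay below the free RNA, at 50.2 to 87.6 CPM of P2ry1, and pericyte-like and glia-like cells held only 12 and 7 P2ry1 UMIs. Over the alternatives the differences ran from -15.2 to -3.41, -9.03 to -4.09 and -14.9 to -1.69, so their sizes are not exact. The genes most like P2ry1 were Robo2 (r = 0.90), Prr16 (0.89) and Ptprd (0.89).

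P2ry6 and P2ry2 were close to 0 in fibroblast-like, LEC-like, pericyte-like and smooth muscle-like cells. P2ry6, the receptor for UDP, held 100, 101, 90.7, 114 and 88.7 CPM in the myeloid-like cells of 5 libraries, with a UMI in 50.7% to 66.7% of them. Blood endothelial-like cells were next with 14.7 to 23.3 CPM and did not overlap with the next class among those seen in several libraries. Only 16 to 33 P2ry6 UMIs were found in the fibroblast-like cells of a library (0.159 to 0.334 CPM), and 9 in all LEC-like cells. The log2 difference between myeloid-like and fibroblast-like cells was 8.49 ± 0.23 (adjusted p = 2.4e-12), and blood endothelial-like cells were above LEC-like cells in all 5 libraries with both (18.8 against 0.0523 CPM, adjusted p = 2.7e-07), a difference whose size rests on the 9 UMIs of the LEC-like cells.

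P2ry2, the receptor for ATP and UTP, had only 415 UMIs in gated cells. Blood endothelial-like cells held 11.3 and 9.65 CPM in the proximal and 6.85 and 4.53 in the distal pair of libraries and 15.9 in the large intestine, from 8 to 54 UMIs each. LEC-like cells had at most 0.748 CPM, and the log2 difference was 4.96 ± 0.45 (adjusted p = 2.2e-05). Glia-like cells had no P2ry2 or P2ry6 UMI in any of the 3 libraries, where 3 UMIs would have been 9.35 to 19.8 CPM, so levels below this were not detectable.

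Entpd1 was high in 3 classes whose ranges overlapped. Blood endothelial-like cells held 641, 594, 742 and 729 CPM in the small intestine and 419 in the large intestine. Smooth muscle-like cells held 617, 534, 719 and 572 CPM in the small intestine, 483 in the cecal and 451 in the large intestinal library. Myeloid-like cells held 634, 512, 608, 420 and 331 CPM in the 5 libraries with enough cells. LEC-like cells, the other endothelial class, held 0.749 to 8.23 CPM, so that the endothelial classes differed by 7.47 ± 0.20 on the log2 scale (adjusted p = 1.7e-08). Smooth muscle-like and myeloid-like cells exceeded fibroblast-like cells by 2.68 ± 0.18 and 2.22 ± 0.15 (adjusted p = 3.8e-07 and 2.4e-08).

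Within the fibroblasts Entpd1 separated the subclasses more in the small intestine than elsewhere. There trophocyte-like cells held 142, 124, 102 and 110 CPM and SEMF-like cells 7.66, 14, 5.50 and 6.35 CPM, a log2 difference of -4.07 ± 0.19 (adjusted p = 6.6e-06 in these 4 libraries). In the cecum the order was turned, with 53.2 CPM in SEMF-like and 29.7 in trophocyte-like cells, and in the large intestine the values were 43.2 and 54.8 CPM. The change of the difference between both parts of the gut was 4.14 ± 0.40 (adjusted p = 0.0018). Over all 6 libraries SEMF-like cells were lower (-2.82 ± 0.88, adjusted p = 0.031), a call that was lost without any of the small intestinal libraries (0.086 to 0.090).

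Entpd2 had its highest means in universal and trophocyte-like fibroblasts, followed by glia-like cells and fibroblast-like cells without a subclass (96.0 to 211 CPM). Universal fibroblast-like cells held 231, 193, 322, 208, 342 and 351 CPM (proximal, distal, cecum, large intestine), trophocyte-like cells 166, 140, 209, 151, 332 and 297 CPM, and the former were higher in each library (0.35 ± 0.07, adjusted p = 0.0068), though not without the library as a block (0.74). Glia-like cells held 131, 172 and 152 CPM, where the free RNA of the same libraries held 108, 76.1 and 187 CPM, with a difference of -0.05 ± 0.20 from fibroblast-like cells (adjusted p = 0.89). SEMF-like cells held only 8.44 to 34.2 CPM, -3.95 ± 0.21 against trophocyte-like cells (adjusted p = 1.4e-05). LEC-like, smooth muscle-like and pericyte-like cells had 1.79 to 24.5 CPM, below the free RNA of every library. Npdc1, which overlaps Entpd2, was likewise higher in glia-like (157 CPM), universal (128) and trophocyte-like cells (119) than in SEMF-like cells (68.7), whereas LEC-like cells held 102 ± 28.6 CPM of Npdc1 and 4.27 ± 2.23 CPM of Entpd2. The part of shared reads in the Entpd2 values was not tested.

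Nt5e was highest in T cell or ILC-like cells, followed by smooth muscle-like cells, and had a mean under 10 CPM in the other classes seen in several libraries, B or plasma cell-like cells (7.51 ± 3.68 CPM) included. T cell or ILC-like cells held 281, 206, 180 and 249 CPM in the small intestine, above every value of any other class. Smooth muscle-like cells held 93.6 and 56.2 CPM in the proximal and 41.5 and 64.9 in the distal pair of libraries, 24.6 in the cecal and 10.2 in the large intestinal library, above the fibroblast-like cells in all 6 libraries (3.88 ± 0.32, adjusted p = 2.0e-06). Fibroblast-like cells had 0.763 to 3.91 CPM and LEC-like cells 0 to 1.09 CPM (-2.87 ± 0.33, adjusted p = 8.5e-05). Free RNA held 3.87 to 5.87 CPM of Nt5e in the small intestine, 0 in the cecum and 5.44 CPM in the large intestine. SEMF-like cells reached 12.3 and 12.8 CPM in the proximal and 6.42 and 7.36 CPM in the distal replicates, against 0.431 in the cecal and 2.34 in the large intestinal library. Their difference from trophocyte-like cells (1.21 ± 0.43) lay just past the threshold (adjusted p = 0.049), leaving out any small intestinal library gave 0.099 to 0.15, and leaving out the library block gave 0.095.

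**Figure D4:**
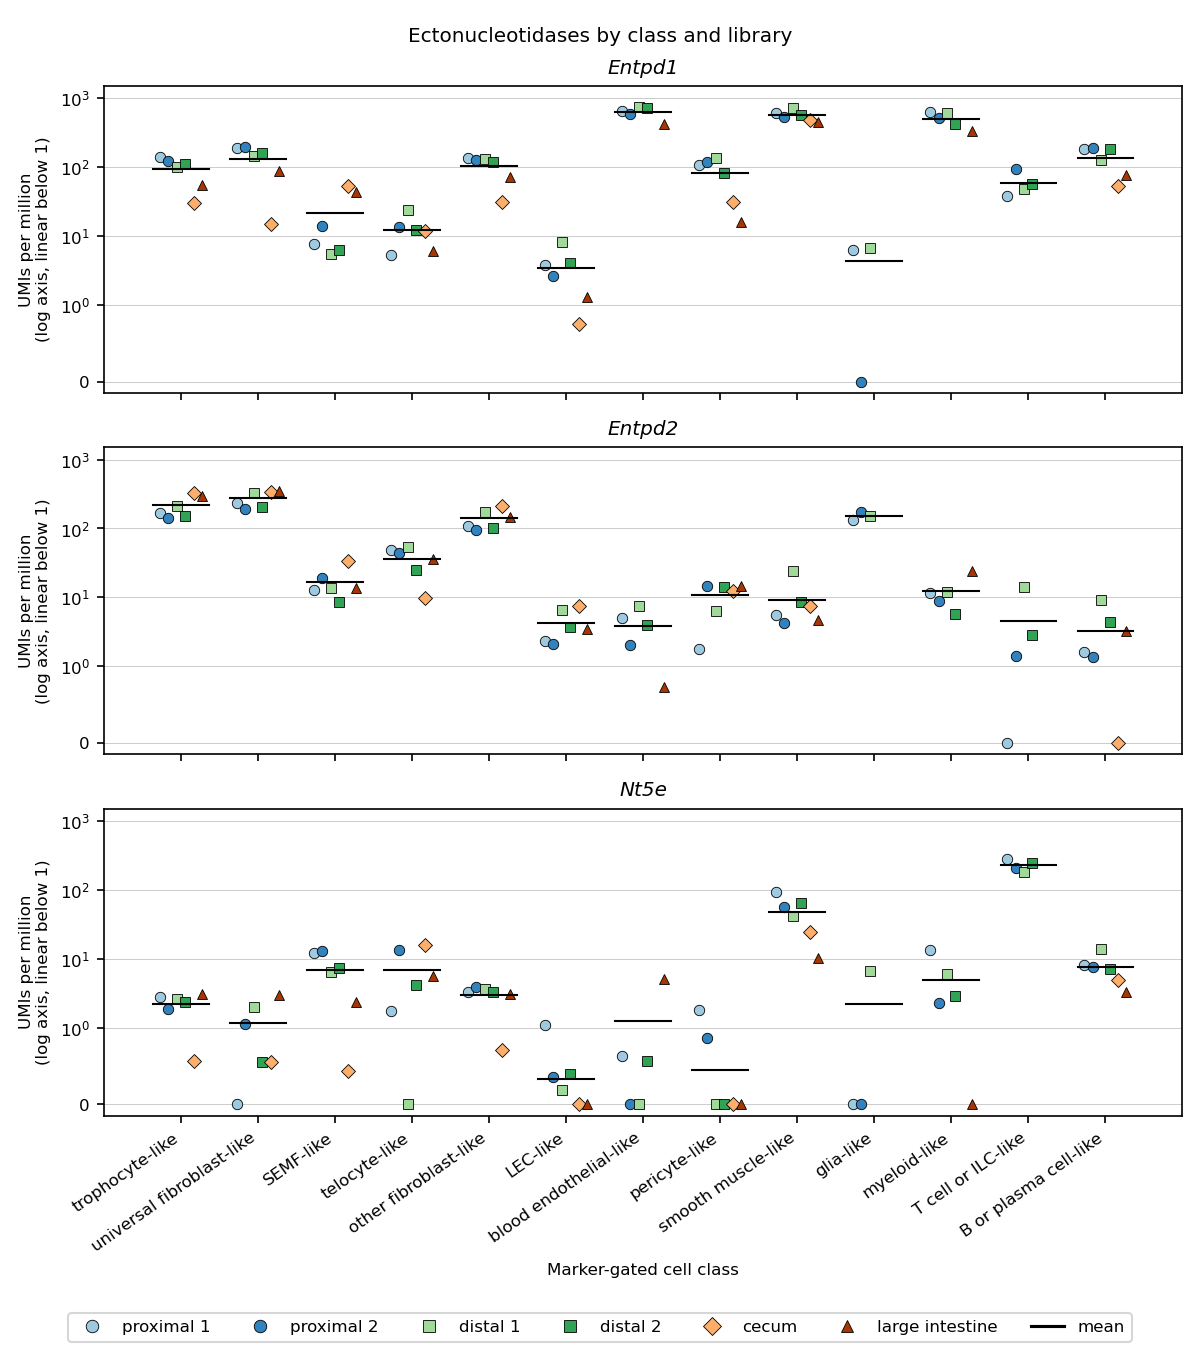
Entpd1, Entpd2 and Nt5e in CPM (log axis, linear below 1) in 13 marker-gated classes, with 1 point for each library and a bar at the mean. Entpd1 lies above 300 in blood endothelial-like, smooth muscle-like and myeloid-like cells, Entpd2 above 95 in trophocyte-like, universal, other fibroblast-like and glia-like cells, and Nt5e above 175 in T cell or ILC-like cells alone.

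Counted over the classes, 9 of 10 members tested were lower in LEC-like than in fibroblast-like cells, 0 were higher and P2ry2 was not called, where 35.8% of all 20002 genes were lower and 29.9% higher (65.7% in either direction). The median log2 difference was -3.80 over the members and -0.07 over all genes. Of the 8 members tested between blood endothelial-like and LEC-like cells, 4 were higher (P2rx7, P2ry2, P2ry6 and Entpd1) and P2rx4 was lower, where 57.5% of genes were called, 29.0% higher and 28.5% lower. Against fibroblast-like cells, 2 members were higher and 5 lower in pericyte-like cells (37.9% of genes called, 15.2% higher and 22.7% lower), and 4 were higher and 2 lower in smooth muscle-like cells (35%, 14.1% and 20.9%). In myeloid-like cells 5 were higher and 4 lower (47% of genes called, 18% higher and 29% lower), and in glia-like cells 1 was higher and 4 lower (23.5%, 9.83% and 13.7%). Between SEMF-like and trophocyte-like cells 3 of 9 were higher and 4 lower (49.9% of genes called, 24.5% higher and 25.4% lower), and these 7 calls went to 4 without proximal replicate 1, proximal replicate 2 or distal replicate 1. Between telocyte-like and SEMF-like cells 4 of 8 were lower and 0 higher (11.6%, with 6.99% lower and 4.61% higher), and the 4 calls went to 1 without proximal replicate 1 and to 2 without proximal replicate 2 or distal replicate 2. In the small intestine alone edgeR called Entpd2 higher in telocyte-like cells (1.64 ± 0.30, adjusted p = 1.5e-05, 2494 of 13192 genes called). Entpd2 lay below the free RNA of every library in both classes. Between universal and trophocyte-like cells 1 was higher and 2 were lower (12.4%, with 6.07% higher and 6.32% lower). Members at the level of a few UMIs, such as P2ry6 in LEC-like cells, count among these calls but carry no usable fold change. Counts given without a library lack the share of all genes called in the same run.

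Whether the members change along the small intestine was asked in fibroblast-like and LEC-like cells. With no block for replicate number, no member was called between distal and proximal libraries in either class by edgeR, limma-voom or DESeq2 (0.00483% of genes called by edgeR in fibroblast-like cells and 0% in LEC-like cells). The fit with such a block is given in the last section. At an unadjusted p under 0.05, edgeR had 0 members in fibroblast-like and 2 in LEC-like cells (P2ry1 and Entpd2). The share of all genes at that p is not given, so these counts are not read as particular to the members. P2rx1 in fibroblast-like cells was 37.0, 46.2, 17.6 and 46.8 CPM, and the low value of the first distal replicate went with a share of SEMF-like cells of 3.91% of fibroblast-like cells, against 9.39% to 13% in the other 3 libraries. Within SEMF-like cells that library had 303 CPM. The part of this share in the low value was not tested.

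The spread in these comparisons of regions came from the small intestinal replicates alone, and on simulated data of this design more calls were false than the threshold allows, which bears on the calls near it. Between the cecum and large intestine and the small intestine, 6 of 10 members were called in fibroblast-like cells, 1 higher and 5 lower (29.1% of all genes, 14.6% higher and 14.5% lower). P2rx1 fell from 17.6 to 46.8 CPM to 8.39 and 1.56 CPM in the cecum and the large intestine (-3.28 ± 0.42, adjusted p = 0.0066). P2ry14 fell from 172 to 232 CPM to 74.8 and 85.4 CPM (-1.25 ± 0.16, adjusted p = 0.0067), and Entpd1 from 99.2 to 128 CPM to 33.2 and 56.7 CPM (-1.29 ± 0.14, adjusted p = 0.0043). P2rx7 fell as well (-0.75 ± 0.12, adjusted p = 0.012), and P2ry2 rose from 0.238 to 0.304 CPM to 0.774 and 0.664 CPM (1.49 ± 0.27, adjusted p = 0.016), still at a very low level. P2ry2 in free RNA was likewise higher in the cecal and large intestinal libraries than in any small intestinal library. It lay above the fibroblast-like level in both, so the rise of P2ry2 is not read as a change of the cells alone. The call for Nt5e (-1.10 ± 0.17, adjusted p = 0.011) rested on the cecum, at 0.763 CPM, since the large intestine at 3.15 CPM lay within the small intestinal range. Without the cecum Nt5e, P2rx7 and P2ry2 lost their calls, with log2 differences of -0.11, -0.63 and 1.35. Without the large intestine P2rx1 lost its call, with a difference of -2.01.

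The composition of the fibroblast-like cells moved with the region. Trophocyte-like cells made up 54.7% to 80.4% of them in the small intestine, 12.3% in the cecal and 8.31% in the large intestinal library, whereas SEMF-like cells made up 3.91% to 13% in the small intestine, 21.2% in the cecal and 25.8% in the large intestinal library. The part of composition in the fibroblast-like differences was not tested. Within trophocyte-like cells alone P2ry14 and Entpd1 were also lower in both libraries, as given above, which was not tested. Dkk2, a gate marker of trophocyte-like cells, was 611 to 1091 CPM in those of the small intestine and 20.1 and 15.6 CPM in the cecum and the large intestine.

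In SEMF-like cells 7 of the 9 members tested differed between both parts of the gut, where 38.1% of genes did (21.4% higher and 16.7% lower). P2rx1 was lower by 4.29 ± 0.22 log2 units (adjusted p = 1.6e-05), and P2ry1 (-1.52 ± 0.18, adjusted p = 6.7e-04), P2rx7 (-0.84 ± 0.16, adjusted p = 0.0067), P2rx4 (-0.44 ± 0.14, adjusted p = 0.036) and Nt5e (-3.01 ± 0.26, adjusted p = 1.7e-04) were lower too. Over the alternatives the P2rx1 difference ran from -5.71 to -2.89, a wider range than its standard error. Entpd1 (2.75 ± 0.22, adjusted p = 1.0e-04) and Entpd2 (0.92 ± 0.23, adjusted p = 0.018) were higher. Over the alternatives the Entpd1 difference ran from 1.21 to 8.26. With classes by cluster it was 1.21 and was not called (adjusted p = 0.073). Entpd2 in SEMF-like cells, at 8.44 to 34.2 CPM, lay below the free RNA of every library. With free RNA subtracted the difference was larger, at 3.99, and was not called (adjusted p = 0.091), and with 2 groups in place of 4 tissues it was 1.02 (0.069). P2ry14 was not called (0.27 ± 0.25, adjusted p = 0.41). With Lrat, Frmd5 and Itga8 near 0 in the cecum and the large intestine, these are differences between the cells that passed the same gate in each region. Among SEMF-like cells with an Itga8 UMI, P2ry1, Entpd1 and Nt5e were called (4050 of 14801 genes called). P2rx7, P2rx4 and Entpd2 were not (adjusted p = 0.061, 0.16 and 0.30). No test of P2rx1 is given in these cells, since Itga8 was chosen for its likeness to it. Most SEMF-like cells of each small intestinal library had such a UMI. Only 349 of 2664 did in the cecal library and 127 of 2614 in the large intestinal library. Unlike parts of the class were thus compared, and these calls are descriptions. The Entpd2 call was lost without the cecum (adjusted p = 0.59), and that of P2rx4 without either proximal replicate, the cecum or the large intestine (0.080 to 0.18).

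In pericyte-like cells 3 of 6 members tested were lower in the cecum and large intestine (14% of genes called, 7.52% higher and 6.45% lower). P2rx1 was not among them, but was called lower with no filter on low counts (-2.02), no doublet removal (-2.25) and classes by cluster (-1.70). It was also called lower without the first proximal replicate (-2.18), the first distal replicate (-2.10) or the cecum (-3.76). P2rx7 fell by 2.17 ± 0.28, Entpd1 by 2.15 ± 0.28 and P2rx4 by 1.15 ± 0.25 on the log2 scale (adjusted p = 1.3e-04, 1.4e-04 and 0.0069). Entpd1 was 80.8 to 135 CPM in the small intestine and 31 and 16.0 CPM in the cecum and the large intestine. The small intestinal range overlapped that of Entpd1 in free RNA. The cecal value was close to the free RNA of its library, and the large intestinal value lay below it. The size of the Entpd1 difference is therefore not exact. The first distal replicate held the fewest pericyte-like cells. Without the large intestine the calls for P2rx7 (0.053) and P2rx4 (0.14) were lost, and with the stricter gate those for P2rx4 (0.084) and Entpd1 (0.31). In LEC-like cells no member passed (16.9% of genes called, 6.94% higher and 9.94% lower) in edgeR, limma-voom or DESeq2, and 3 did at an unadjusted p under 0.05 (P2rx1, P2ry14 and Entpd1). That unadjusted count, too, stands without the share of all genes at the same p. Entpd1 was called lower with no filter on low counts (-2.19) and with no doublet removal (-2.64). The same held without the second proximal (-2.23), the first distal (-1.94) or the second distal replicate (-2.39). The cecum and the large intestine held only 234 and 264 LEC-like cells. P2rx1 had no UMI there, where 3 UMIs would be 2.25 and 1.29 CPM, so a level like the 0.561 to 1.82 CPM of the small intestine was for the most part not detectable.

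**Figure D5:**
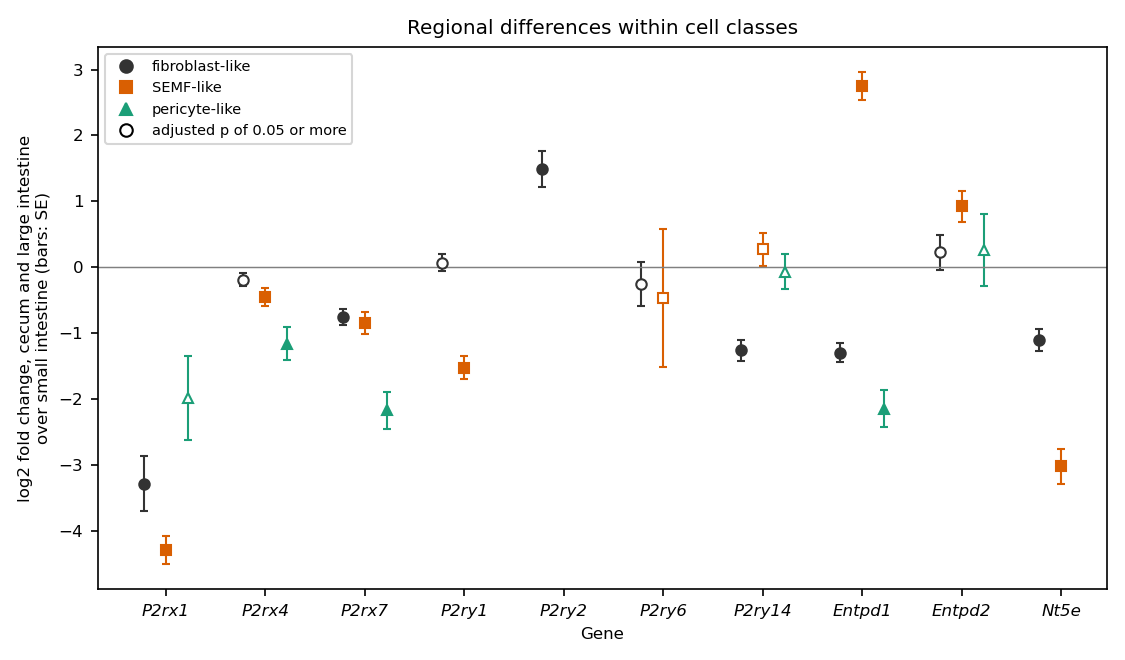
Log2 fold change of each tested member, cecum and large intestine over small intestine, in fibroblast-like, SEMF-like and pericyte-like cells, with bars of 1 SE and open symbols where the adjusted p is 0.05 or more. P2rx1 lies lowest in SEMF-like cells at -4.29, and Entpd1 is at 2.75 in SEMF-like but at -1.29 and -2.15 in fibroblast-like and pericyte-like cells.

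The other 34 genes of nucleotide and adenosine handling were counted in the same tests, each count beside the shares of all genes called. In LEC-like against fibroblast-like cells 3 of 26 tested were higher and 15 lower (29.9% and 35.8% of all genes), with a median log2 difference of -0.71. The adenosine receptor gene Adora2a was higher in LEC-like cells in all 6 libraries (27.3 ± 5.36 against 2.05 CPM, adjusted p = 3.3e-05), and Enpp1, a phosphodiesterase that cuts ATP to AMP and pyrophosphate, was lower (1.77 against 51.9 CPM, adjusted p = 2.2e-08). Against LEC-like cells, 6 of 16 were higher and 4 lower in blood endothelial-like cells (29.0% and 28.5% of all genes). In pericyte-like cells 4 of 24 were higher than in fibroblast-like cells and 11 lower (15.2% and 22.7% of all genes), with Adora2a (24.4 against 2.05 CPM, adjusted p = 6.0e-07) and Adora2b (16.3 against 1.31 CPM, adjusted p = 1.1e-04), both adenosine receptors, among the former. In smooth muscle-like cells 2 of 24 were higher and 10 lower (14.1% and 20.9%), in glia-like cells 2 of 22 higher and 5 lower (9.83% and 13.7%), and in myeloid-like cells 9 of 28 higher and 8 lower (18% and 29%). P2ry12, the ADP receptor of microglia, was higher in glia-like (29.2 against 1.14 CPM, adjusted p = 4.6e-11) and in myeloid-like cells (52.8 against 0.968 CPM, adjusted p = 1.1e-08).

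Among fibroblasts, 3 of 21 of these genes were higher and 9 lower in SEMF-like than in trophocyte-like cells (24.5% and 25.4% of all genes). Pnp, the phosphorylase that breaks down inosine and guanosine, was lower in 6 of 6 libraries (105 ± 82.6 against 582 CPM, adjusted p = 3.6e-04), and so was the nucleoside transporter gene Slc29a1 (50.2 against 149 CPM, adjusted p = 1.3e-05). In telocyte-like against SEMF-like cells 0 of 19 were higher and 3 lower (4.61% and 6.99%), and in universal against trophocyte-like cells 2 of 20 were higher and 3 lower (6.07% and 6.32%). Along the small intestine 0 of 26 in fibroblast-like and 0 of 19 in LEC-like cells were called (0.00483% and 0% of all genes). In the cecum and large intestine 6 of 26 were higher and 2 lower in fibroblast-like cells (14.6% and 14.5% of all genes), among the former Adora1 (8.21 against 2.53 CPM, adjusted p = 0.0019) and Alpl, a phosphatase that also acts on nucleotides (46.5 ± 26.6 against 19.0 CPM, adjusted p = 0.0036). In SEMF-like cells 8 of 22 were higher and 0 lower (21.4% and 16.7%), in LEC-like cells 4 of 19 higher and 0 lower (6.94% and 9.94%), and in pericyte-like cells 1 of 10 higher and 1 lower (7.52% and 6.45%).

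The genes most like the remaining members over the 72 sums were Gsn (r = 0.90) for Entpd2, Csf2rb (0.87) for P2ry6, Gm10134 (0.86) for P2ry14, Taok3 (0.77) for P2rx4, Zfp366 (0.77) for P2ry2, Clasp2 (0.77) for P2rx7, Stk24 (0.74) for Nt5e and Arl4d (0.68) for Entpd1. Of these, Csf2rb, a cytokine receptor subunit of myeloid cells, goes with the myeloid-like level of P2ry6, and Gsn, an actin-severing protein, is plentiful in fibroblasts. In a bulk view of a class, fewer cells with a transcript and less transcript per cell give the same CPM. For P2rx1 in SEMF-like cells both the share of cells with a UMI and the CPM differed between regions. The share with a UMI also falls when each cell holds less transcript, so these values cannot tell which was the case.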

How the data were processed

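The deposited counts were UMI counts per gene and barcode (unfiltered 10x Genomics 3′ matrices), which the authors made with Cell Ranger (8.1.0 in the methods, 8.0.1 in the matrix header) on mm39 with tdTomato added. The study's SoupX and DoubletFinder steps are not in these matrices, and its removal of clusters by tdTomato was not repeated. A barcode counted as a cell if it had 1000 to 7500 genes, 2500 to 40000 UMIs and a mitochondrial share below 10%, and doublets were removed with Scrublet (scanpy 1.11.5, Python 3.11.15) at 0.8% per 1000 cells. Several hashtags were called in 8.39% to 13.8% of the cells of a library before this removal. Scrublet flagged 30.6% to 41.6% of these cells, and the rest were kept. A cell entered a class with at least 3 gate markers detected and a score margin of 0.1, thresholds set after the scores were seen. Of the fibroblast-like cells, 4421 passed and 7724 missed a subclass margin by less than 0.05. Counts were summed per library and class with at least 20 cells and tested in R 4.3.3 with edgeR 4.0.16 (quasi-likelihood, TMM, filterByExpr with a minimum count of 10, Benjamini-Hochberg adjustment over all genes, threshold 0.05). Class comparisons had the library as a block. Region comparisons had a coefficient for each of the 4 tissues, so their spread came from the small intestinal replicates alone. A standard error is the log2 fold change divided by the root of F. On simulated data directions were recovered, and false calls exceeded the nominal share, most in the region design with 2 residual degrees of freedom. Alternatives were limma-voom (3.58.1), DESeq2 (1.42.0), no filter on low counts, leaving out each library, a stricter gate, 10% free RNA subtracted, no doublet removal, stricter cell filters, classes by cluster and other blocks. The 10 members, 34 other pathway genes and, per member, the 3 genes most correlated in log2(CPM + 1) are the named genes. Members and lists were chosen with earlier results of these data known. Floors of 3 UMIs cover counting error only. Promoter windows were read from the GRCm39 genome before the canonical transcript start of the GENCODE annotation.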

Additional observations from a re-analysis of the deposited data

Results flagged for a closer look

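Whether a class difference was itself different in the cecum and large intestine from the small intestine was tested with an interaction term in 6 class comparisons (edgeR quasi-likelihood test), and 15 member results passed an adjusted p of 0.05. Over all genes 2310 of 16758 passed between SEMF-like and trophocyte-like cells, 753 of 15167 between telocyte-like and SEMF-like, 892 of 18819 between smooth muscle-like and fibroblast-like and 1157 of 18846 between pericyte-like and fibroblast-like cells. In the other 2 comparisons the lowest adjusted p of a member was 0.27 for LEC-like against fibroblast-like (2039 of 20002 genes passed) and 0.46 for universal against trophocyte-like cells (105 of 15245). Values are the log2 class difference in the cecum and large intestine minus that in the small intestine, ± SE. Between SEMF-like and trophocyte-like cells Entpd1 changed by 4.14 ± 0.40 (adjusted p = 0.0018), P2ry14 by 1.17 ± 0.27 (0.033), P2ry1 by -2.11 ± 0.22 (0.0022), P2rx4 by -0.46 ± 0.10 (0.025) and Nt5e by -2.29 ± 0.54 (0.035). Between telocyte-like and SEMF-like cells Entpd1 changed by -3.06 ± 0.61 (0.0021) and Nt5e by 3.81 ± 1.00 (0.023). Entpd1 in SEMF-like cells lay below the free RNA of every library but the cecal one. The sizes of these Entpd1 changes are therefore not exact. Both comparisons hold SEMF-like cells, whose markers Frmd5, Lrat and Itga8 also differed between these parts of the gut. Lgr5, a gate marker of telocyte-like cells, was 108 to 1236 CPM in those of the small intestine and 29.0 and 5.59 CPM in the cecum and the large intestine, and 1096 of the 1379 telocyte-like cells came from the large intestine. The part of these markers was not tested. Between smooth muscle-like and fibroblast-like cells P2rx1 changed by 2.01 ± 0.46 (0.0053), P2ry14 by 1.58 ± 0.24 (3.4e-05), Entpd1 by 0.94 ± 0.22 (0.0069) and P2ry1 by -2.08 ± 0.29 (1.2e-05). Between pericyte-like and fibroblast-like cells P2ry14 changed by 1.21 ± 0.26 (2.1e-04), P2rx7 by -1.66 ± 0.29 (9.2e-07), Entpd1 by -1.19 ± 0.30 (0.0021) and P2rx4 by -1.11 ± 0.27 (0.0015). The share of trophocyte-like cells among fibroblast-like cells also differed between these parts, and its role was not tested. The cecum and the large intestine are 1 library each.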

How the results depend on the processing

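Of 136 member results, 71 were called, and 44 of these kept direction and call in every alternative run, as did 46 of the 65 not called. With classes by cluster P2rx1 turned to 1.51 in pericyte-like against fibroblast-like cells, and P2rx1 and Entpd1 turned to -2.07 and -1.49 in universal against trophocyte-like cells. With limma-voom P2ry6 turned to 1.55 in pericyte-like cells, and P2ry2 and P2ry6 to 2.87 and 2.90 in glia-like cells, where both had no UMI. The causes were not tested. Of the 7 members called between SEMF-like and trophocyte-like cells, 4 remained in number with free RNA subtracted, 4 with classes by cluster and 4 to 6 when a library was left out. Between telocyte-like and SEMF-like cells the count of 4 went to 2 with the stricter gate and 1 to 4 without a library, P2ry1 being lost without any small intestinal library. Between universal and trophocyte-like cells the count of 3 went to 5 by cluster, 0 without the library block and 3 to 4 without a library, and Entpd1 was called without the cecum (0.52, adjusted p = 4.6e-04). Between the cecum and large intestine and the small intestine, leaving out a library gave 3 to 7 members in fibroblast-like, 0 to 2 in LEC-like, 5 to 7 in SEMF-like and 1 to 4 in pericyte-like cells. LEC-like cells gave 2 with no filter on low counts (P2rx1 and Entpd1) and 2 with no doublet removal (P2ry14 and Entpd1). Pericyte-like cells gave 1 with the stricter gate and 5 by cluster. In SEMF-like cells with an Itga8 UMI P2ry1, Entpd1 and Nt5e were called. P2rx1 is not counted there, since Itga8 was chosen for its likeness to it. Where a count here stands without the share of all genes called, its change is not read as particular to the members. The replicate numbers share no stated litter or day. The replicate block gave 1 member between distal and proximal LEC-like cells (Entpd2, 1.05, adjusted p = 0.017), and 281 genes there and 239 in fibroblast-like cells, with correlations of replicate differences of 0.18 and 0.35. Clusters gave no myeloid, smooth muscle or epithelial class, so these had no value by cluster. The choices of small intestine alone and of Itga8 cells were made after seeing the data.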
